A study of Drosophila melanogaster with 10 samples.

Results

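Acyl-CoA binding proteins are small soluble proteins that hold long-chain fatty acids in their activated form, as thioesters of coenzyme A. They shield these esters in the cytosol and hand them to the enzymes that build glycerolipids, lengthen fatty acid chains or oxidise them. In the midgut, the digestive and absorptive part of the fly intestine, enterocytes take up dietary fatty acids and activate them before they enter these routes. The genes described here are the 6 members named Acbp1 to Acbp6 in the deposited gene table, 6 of the 14310 genes measured. The rule takes them by name and uses no measured value, though earlier results of these data were known when the family was picked. Acbp2 is the fly counterpart of the vertebrate diazepam-binding inhibitor, the founding member of the family.

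RNA was sequenced from the midguts of adult Drosophila melanogaster males, each library pooling 20 midguts taken 7 days after eclosion from flies fed yeast alone and kept at 25 °C with 12 h of light and 12 h of darkness. In the 5 libraries labelled dHNF4 RNAi, w/Y males carried 1 copy of mex-GAL4, a driver active in enterocytes, together with 1 copy of the transgene UAS-dHNF4 RNAi NIG9310-R2. In the 5 libraries labelled control, w1118/Y males carried 1 copy of the same transgene with no driver. Both groups therefore held the knockdown transgene, the driver was in the RNAi-labelled group alone, and its effect cannot be told apart from that of the knockdown. The comparison asks how expression in the midgut differs when Hnf4, the fly's hepatocyte nuclear factor 4, is targeted in enterocytes.

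Values are TPM, each gene's share of the transcripts of a library after correction for transcript length. Levels are compared between genes as far as that correction holds. How related genes shared reads is unknown, which limits comparisons of level between members. Sequencing depth is not kept by TPM and is unknown here. Hnf4 itself was at 42.1 to 48.0 TPM in the libraries labelled dHNF4 RNAi, against 33.5 to 45.8 TPM in those labelled control, so the TPM show no decrease of the targeted transcript (log2 fold change 0.24, limma adjusted p = 0.0199). Under the median-of-ratios scaling described next it was -0.35 (adjusted p = 0.000815). The authors' own deposited comparison lists Hnf4 at -0.21 with an unadjusted p of 0.419, and Hnf4 did not pass there. Every direction given is that of the libraries so labelled. Enterocyte markers were abundant in all 10 libraries, 12 genes summing to 53064 to 66647 TPM in the RNAi-labelled group and 63820 to 85955 TPM in the control-labelled group. Single markers lay on both sides, with mex1 at 894 and 490.0 TPM on average and Amy-p, an amylase gene, at 8595 and 18270.0 TPM. Of the 8784 genes tested, 83.2% passed an adjusted p of 0.05, 66.9% as higher and 16.3% as lower, and the median log2 fold change was 0.55. A second scaling, by median of ratios, which sets the typical gene to no change, moved that median to 0.01 and called 71.4% of genes, 35.6% as higher and 35.8% as lower. Both are given for each member, since the choice decides some directions.

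The family is partly clustered. Acbp4, Acbp6, Acbp3 and Acbp2 lie side by side on chromosome 3L within 5551 bp (3L, 7127913 to 7133463, BDGP6.54). Acbp4 (FBgn0035742, 7127913 to 7128264) is on the minus strand. Acbp6 (FBgn0035743, 7128903 to 7129673), Acbp3 (FBgn0250836, 7130874 to 7131505) and Acbp2 (FBgn0010387, 7131863 to 7133463) follow on the plus strand, with gaps of 638, 1200 and 357 bp between neighbours. Acbp5 (FBgn0035926, 3L, 8788144 to 8788545, minus strand) lies 1.66 Mb further along the same arm, and Acbp1 (FBgn0031992, 8161796 to 8162452, minus strand) is on 2L. All 6 are compact genes, 352 to 1601 bp long, whose annotated transcripts of 337 to 697 bases have 1 to 3 exons.

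**Figure D1:**
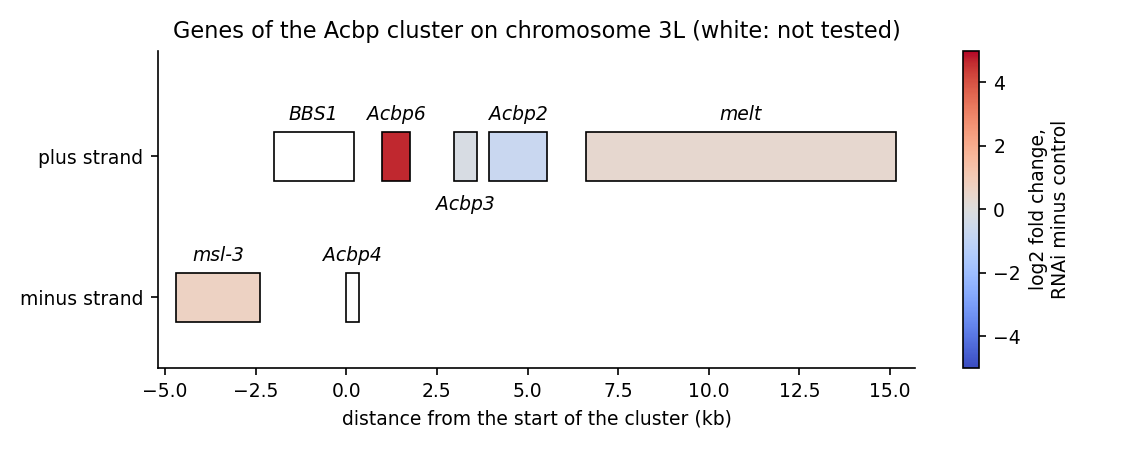
Map of the 4 clustered Acbp genes and the nearest genes around them, by distance in kb from the start of the cluster and by strand, coloured by log2 fold change on the deposited TPM scale. Acbp6 (4.69) stands between Acbp4, which was too low to test, and Acbp3 (-0.21) and Acbp2 (-0.70).

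Acbp6 was the member with the largest fold difference on both scalings, with much more transcript in the RNAi-labelled group. It measured 608, 449, 497, 344 and 467 TPM in RNAi-labelled replicates 1 to 5, against 27.4, 155, 6.79, 8.13 and 5.20 TPM in control-labelled replicates 1 to 5. All 5 RNAi-labelled libraries were above all 5 controls, and control replicate 2 stood apart from the other controls. The means were 473 ± 94.9 TPM and 40.5 ± 64.6 TPM (SD, n = 5 each), an 11.7-fold ratio. Without control replicate 2 the control mean was 11.9 ± 10.4 TPM (n = 4) and the ratio was 39.8-fold. The log2 fold change, on the log2(TPM + 1) scale, was 4.69 (SE 0.74, 95% interval 3.05 to 6.32, limma adjusted p = 0.000102), the third largest increase of the 8784 genes. It was 5.46 without control replicate 2 (adjusted p = 3.8e-07) and 4.11 under median-of-ratios scaling (adjusted p = 0.000469). For Acbp6 the authors' deposited table lists a smaller log2 fold change, 1.80 with an unadjusted p of 0.0926. The workbook that holds that table has RUVSeq, a tool that removes unwanted variation, in its name, and the cause of the gap was not tested.

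The spread of Acbp6 among controls was itself unusual. Its coefficient of variation there was 160%, larger than in 99.7% of the genes tested, while in the RNAi-labelled libraries it was 20.1%. Control replicate 2 held 5.66 times as much as the next control, and only 9 other genes tested had a larger such ratio. That library was the highest control for 57.1% of the genes tested.

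Markers of intestinal stem cells and their enteroblast daughters moved with Acbp6. All 12 markers on that list were called higher in the RNAi-labelled group under both scalings. Over all genes tested the share called higher was 66.9% on the TPM scale and 35.6% under median-of-ratios scaling. On the TPM scale the markers had a median log2 fold change of 1.81, against 0.55 over all genes tested. All 12 markers remained higher without control replicate 2. Their summed level was 235 to 285 TPM in the RNAi-labelled libraries and 38.9 to 84.9 TPM in the controls, where control replicate 2 was again the highest. The transcription factor gene esg, which marks these progenitors, was at 30.0 ± 2.78 TPM in RNAi-labelled libraries and 8.03 ± 2.59 TPM in controls (SD, n = 5 each). Their part in the Acbp6 result was not tested. In such pooled tissue, more or fewer cells of a type and more or less RNA per cell cannot be told apart.

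The genes whose pattern over the 10 libraries was most like that of Acbp6 differed widely in the size of their group difference. Their highest control value was in replicate 2, as for Acbp6. Choice by likeness favours such a match, and replicate 2 was the highest control for 57.1% of the genes tested. Likeness was measured by Pearson's r of log2(TPM + 1) over the 10 libraries, a description only, since all genes share the same libraries and the same group difference. The closest was LysX, a lysozyme gene (r = 0.993, and 0.967 after the group means were subtracted). LysX measured 201, 230, 228, 167 and 211 TPM in RNAi-labelled replicates 1 to 5, against 14.7, 74.5, 2.08, 5.72 and 4.21 TPM in control-labelled replicates 1 to 5. Next was pico, an adaptor gene (r = 0.991, and 0.957), at 4.60 ± 0.231 TPM in RNAi-labelled libraries and 2.90 ± 0.560 TPM in controls. Its log2 fold change of 0.53 was near the median of all genes. The third was betaTub60D, a beta-tubulin gene (r = 0.989, and 0.947). The tubulin gene measured 189 ± 22.4 TPM in RNAi-labelled libraries and 24.0 ± 31.6 TPM in controls, of which 80.2 TPM stood in control replicate 2.

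**Figure D2:**
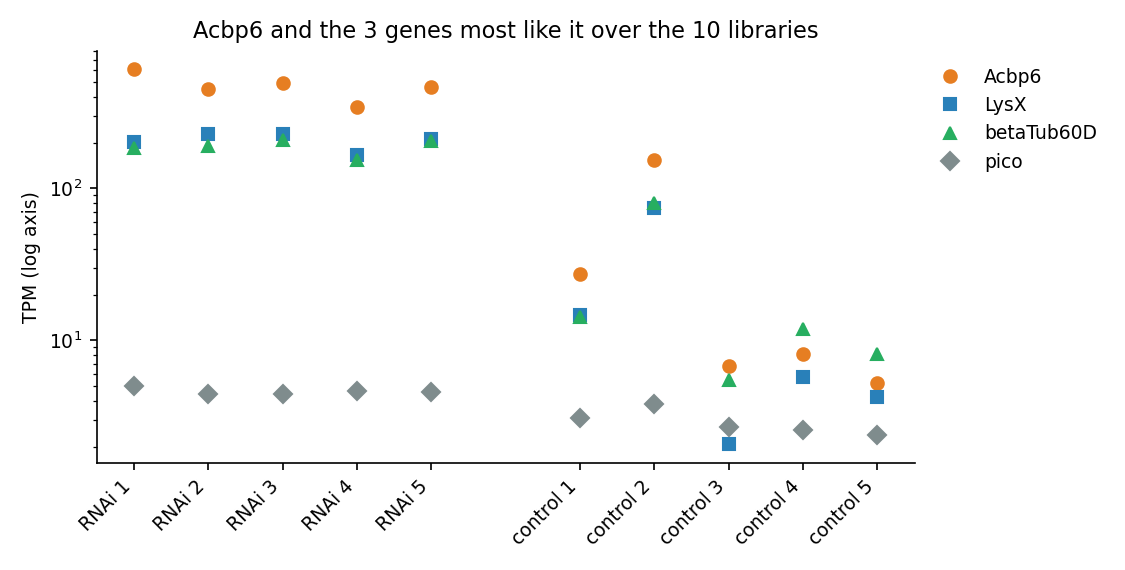
TPM, on a log axis, of Acbp6, LysX, betaTub60D and pico in each library, RNAi-labelled on the left and control-labelled on the right. Acbp6, LysX and betaTub60D are high in all 5 RNAi-labelled libraries, and among controls highest in replicate 2, at 155, 74.5 and 80.2 TPM.

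Acbp2, the diazepam-binding inhibitor counterpart, went the other way. It measured 1318, 1204, 1482, 1482 and 1252 TPM in RNAi-labelled replicates 1 to 5, against 2074, 1912, 2518, 2375 and 2109 TPM in control-labelled replicates 1 to 5. The groups did not overlap, and every RNAi-labelled library was below every control. The means were 1348 ± 129 TPM and 2198 ± 244 TPM (SD, n = 5 each), a ratio of 0.613 and a difference of -850.1 TPM, the largest within the family on the deposited scale. The log2 fold change was -0.70 (SE 0.09, limma adjusted p = 1.85e-05), with a lower value in only 7.66% of the genes tested. Under median-of-ratios scaling it was -1.31 (adjusted p = 1.47e-06). Acbp2 was the only member to pass in the authors' deposited comparison, with a log2 fold change of -1.02 and an unadjusted p of 0.000557. Passing was common there. The authors' list of significant genes has 4177 rows, and 40% of their 10436 genes had an unadjusted p under 0.05.

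The genes most like Acbp2 over the libraries were lower in the RNAi-labelled group as well. That direction follows from their choice by likeness over both groups and is not a separate result. CRAT, which encodes carnitine acetyltransferase, had r = 0.985 and was at 26.6 ± 1.81 TPM in RNAi-labelled libraries, against 45.1 ± 4.97 TPM in controls. The gene mas, for a serine protease homologue, had r = 0.984. Lsd-1, which encodes a perilipin of the lipid droplet surface, had r = 0.982 and measured 15.6 ± 3.75 TPM in RNAi-labelled libraries and 56.6 ± 12.5 TPM in controls. After the group means were subtracted these r were 0.871, 0.864 and 0.852.

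Acbp5 was the most abundant member in every library. It measured 3285, 3515, 3804, 3370 and 3142 TPM in RNAi-labelled replicates 1 to 5, against 3475, 3102, 4369, 4236 and 3649 TPM in control-labelled replicates 1 to 5. The ranges overlapped. Acbp5 ranked 31st by mean TPM of all genes in the RNAi-labelled group and 28th in the control-labelled group. The means of 3423 ± 252 and 3766 ± 530 TPM gave a log2 fold change of -0.13 (95% interval -0.34 to 0.08, limma adjusted p = 0.235), which missed the threshold. Under median-of-ratios scaling Acbp5 was lower, by -0.73 on the log2 scale (adjusted p = 0.00023). Its most similar genes were Sccpdh2 (r = 0.889), CG7970 (r = 0.874) and Gnpnat, for a glucosamine-phosphate acetyltransferase (r = 0.853).

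Acbp3, the neighbour of Acbp2, showed a similar picture with more spread. It measured 1625, 1679, 2052, 2025 and 1910 TPM in RNAi-labelled replicates 1 to 5, against 2473, 2116, 2355, 2502 and 1451 TPM in control-labelled replicates 1 to 5. Control replicate 5 was below every RNAi-labelled library, while the other 4 controls were above all of them. The log2 fold change was -0.21 (95% interval -0.53 to 0.11, limma adjusted p = 0.195). Without control replicate 5 it was -0.35 and passed (adjusted p = 0.00396), so that 1 library decides the call. Under median-of-ratios scaling it was -0.81 (adjusted p = 0.000619). The gene most like Acbp3 was bgm, for a very-long-chain acyl-CoA synthetase (r = 0.913). Its lowest value of 36.8 TPM was also in control replicate 5, a match that its choice by likeness favours. CG17119 (r = 0.908) and RYa-R, for a neuropeptide receptor (r = 0.901), came next.

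Acbp1 was present at a modest level. It measured 81.1, 88.2, 85.8, 96.0 and 79.9 TPM in RNAi-labelled replicates 1 to 5, against 53.8, 57.6, 64.9, 66.7 and 69.4 TPM in control-labelled replicates 1 to 5. The groups did not overlap, but the gap was small. The log2 fold change was 0.46 (SE 0.08, limma adjusted p = 0.000225), close to the median of 0.55 over all genes tested, and 44.3% of these had a lower value. Under median-of-ratios scaling the sign turned, to -0.13 with adjusted p = 0.213. The 3 genes most like Acbp1 were ND-23 and ND-B16.6, for subunits of respiratory complex I, and UQCR-14, for a subunit of complex III, with r of 0.985 to 0.990.

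Acbp4 was close to undetected. It was listed at 0 in 3 of the 5 RNAi-labelled libraries and 3 of the 5 controls, and its highest values were 0.924 TPM in RNAi-labelled replicate 1 and 0.613 TPM in control replicate 1. Its mean was below the 1 TPM required for testing. With no such filter its log2 fold change was 0.12 (adjusted p = 0.646). Its annotation overlaps by 206 bp with that of BBS1, a ciliary gene on the opposite strand, which averaged 0.0664 TPM in RNAi-labelled libraries and 0.159 TPM in controls.

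**Figure D3:**
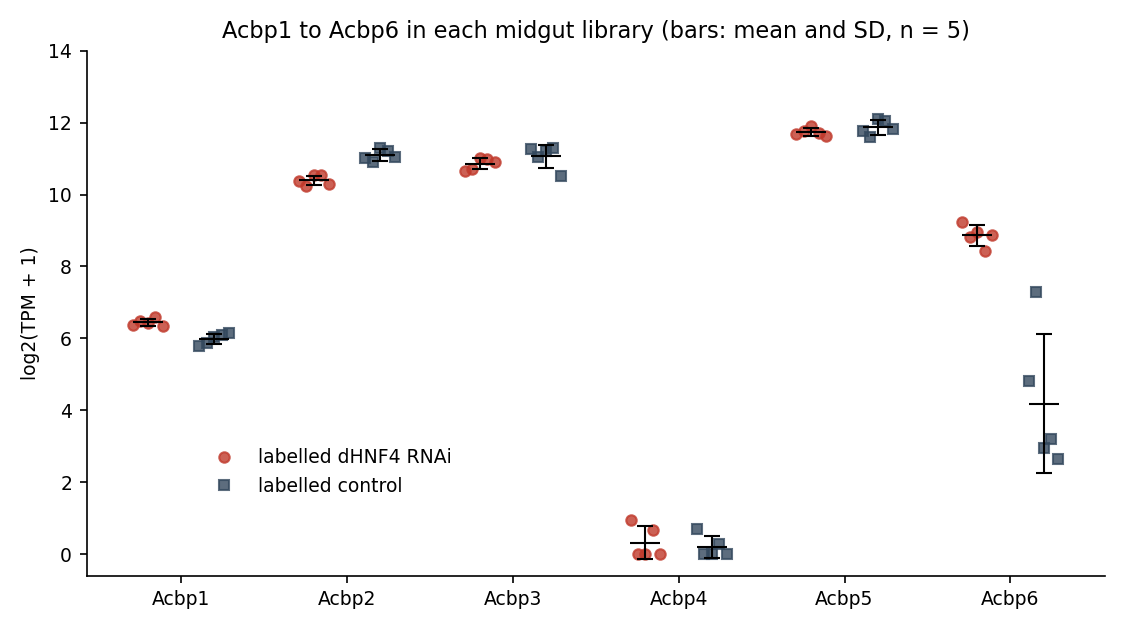
Levels of the 6 members as log2(TPM + 1) in each library, RNAi-labelled beside control-labelled, with the mean and SD of 5 libraries. Acbp6 is higher and Acbp2 lower in every RNAi-labelled library than in any control, and Acbp4 lies near 0 throughout.

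In sum over the members, 2 of the 5 tested were higher (Acbp1 and Acbp6) and 1 was lower (Acbp2) on the deposited TPM scale, where 66.9% and 16.3% of all genes tested were called higher and lower. Under median-of-ratios scaling 1 was higher (Acbp6) and 3 were lower (Acbp2, Acbp3 and Acbp5), where 35.6% and 35.8% of all genes were, 71.4% in all. The groups did not overlap for 3 members, Acbp1, Acbp2 and Acbp6, on the TPM scale, where the same held for 72% of the genes tested. Under the other scaling they did not overlap for 4 members, Acbp2, Acbp3, Acbp5 and Acbp6, against 58% of genes. Acbp2 and Acbp6 passed in the same direction under both. In the authors' deposited table Acbp3, Acbp5 and Acbp1 lay between these scales, with log2 fold changes of -0.42, -0.41 and 0.20 at unadjusted p of 0.231, 0.18 and 0.474. Acbp2 lay between them too, while Acbp6, at 1.80, was below both.

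**Figure D4:**
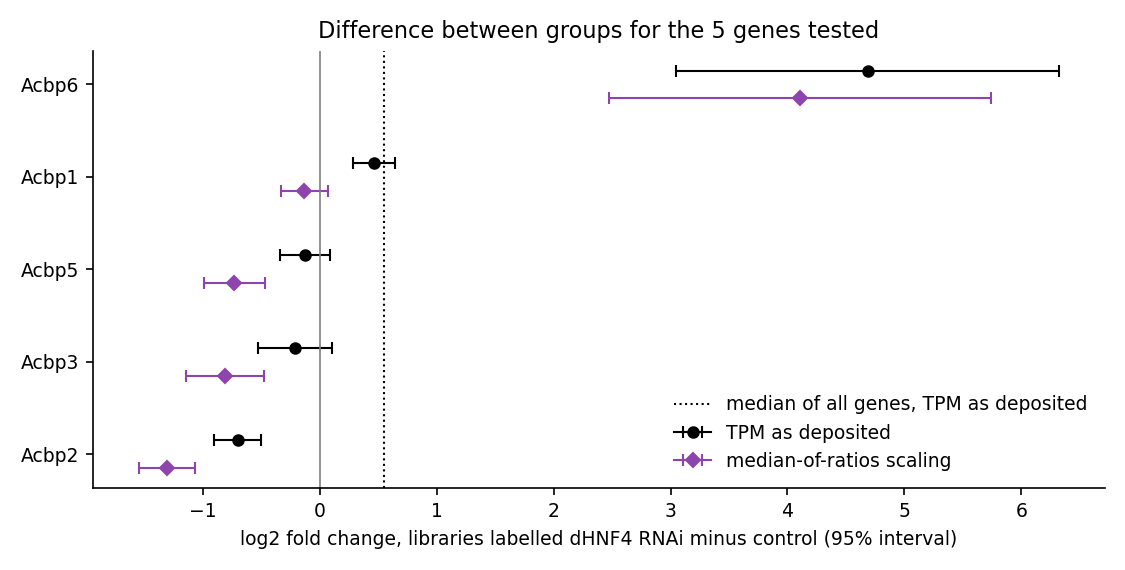
Log2 fold change (libraries labelled dHNF4 RNAi minus control) with its 95% interval for the 5 members tested, on the TPM scale and after median-of-ratios scaling. Acbp6 stays far above 0 and Acbp2 below 0 on both, while Acbp1 moves from 0.46 to -0.13.

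The order of levels within the family was fixed in one group and varied in the other. In all 5 RNAi-labelled libraries the order was Acbp5, Acbp3, Acbp2, Acbp6, Acbp1 and Acbp4. In the controls Acbp5 also led, but Acbp3 was above Acbp2 in 3 of 5 libraries and below it in 2, with means of 2180 ± 435 and 2198 ± 244 TPM that do not differ beyond their spread. Acbp6 was above Acbp1 in all 5 RNAi-labelled libraries and in 1 of 5 controls, replicate 2. By mean TPM over all genes, Acbp6 ranked 351st in the RNAi-labelled group and 2115th in the control-labelled group.

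Shares within the family do not depend on how a library is scaled. Acbp6 made up 6.61% ± 1.46 of the summed TPM of the 6 genes in RNAi-labelled libraries and 0.536% ± 0.886 in controls (SD, n = 5 each), and 0.0714% to 0.338% in the controls other than replicate 2. Acbp2 made up 18.7% ± 1.06 in RNAi-labelled libraries and 26.7% ± 1.38 in controls. The shares of Acbp5, 47.6% ± 1.95 and 45.7% ± 3.20, and of Acbp3, 25.8% ± 1.98 and 26.4% ± 4.09, overlapped between the groups. Acbp1 made up 1.20% ± 0.0911 in RNAi-labelled libraries and 0.765% ± 0.114 in controls. The summed TPM were 6851 to 7921 in RNAi-labelled libraries and 7284 to 9314 in controls, and after median-of-ratios scaling 5539 to 6297 and 8033 to 11792. The rise of Acbp6, 432 TPM between means, was smaller in size than the difference of -850.1 TPM in Acbp2.

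**Figure D5:**
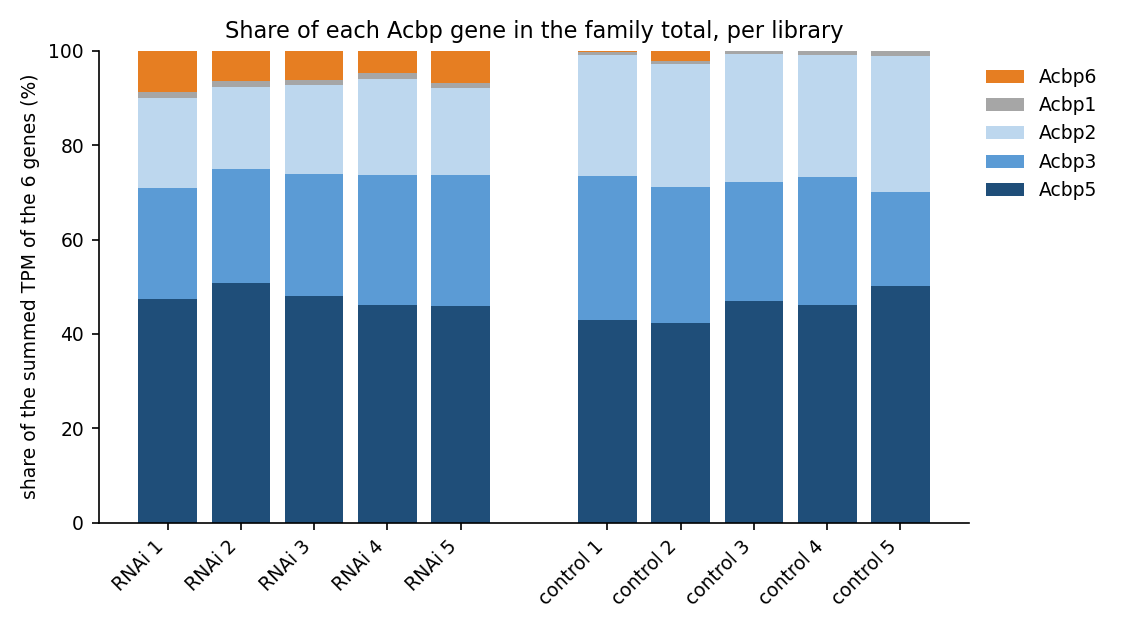
Share of each gene in the summed TPM of the family, per library, in percent (Acbp4, below 0.02%, is not drawn). The Acbp6 share is 4.70% to 8.78% in RNAi-labelled libraries and at most 2.11% in controls, and the Acbp2 share is smaller in every RNAi-labelled library.

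Ratios between members of the same library were also compared over the 10 pairs of the 5 genes tested, a test chosen after the values had been seen. The log2 ratio of Acbp2 to its neighbour Acbp3 was -0.46 ± 0.11 in RNAi-labelled libraries and 0.03 ± 0.31 in controls, a difference of -0.49 (SE 0.15, two-sided exact permutation p = 0.00794, the smallest possible here, and 0.00992 adjusted over the pairs). The log2 ratio of Acbp2 to Acbp5 was -1.35 ± 0.13 and -0.77 ± 0.05, a difference of -0.57 (SE 0.06, exact p = 0.00794, adjusted 0.00992). Acbp2 was therefore lower relative to both other abundant members, with no overlap between the groups. For Acbp3 over Acbp5 the difference was -0.08 (SE 0.17, exact p = 0.675), with overlap. The ratio of each of the other 4 to Acbp6 was lower, by -4.35 (Acbp1) to -5.52 (Acbp2) on the log2 scale (exact p = 0.00794 each, adjusted 0.00992). Without control replicate 2 these were -5.19 and -6.38. All 4 ratios share the Acbp6 values and restate its difference between the groups, so they are not separate results. The ratio of Acbp1 to Acbp2 was higher by 1.17 and that to Acbp5 by 0.60, with the same p, and its ratio to Acbp3 differed by 0.68 (exact p = 0.0317, adjusted 0.0352). That last call was lost in 9 of the 10 fits that left out 1 library (adjusted p up to 0.0706).

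The genes flanking the cluster lay near the median of all genes on both scales. Upstream, msl-3, of the dosage compensation complex, was at 11.7 ± 0.615 TPM in RNAi-labelled libraries and 6.88 ± 0.591 TPM in controls. Its log2 fold change was 0.69 (limma adjusted p = 1.91e-06), and 0.15 under median-of-ratios scaling (adjusted p = 0.0209). Downstream, melt, a regulator of fat storage, was at 13.0 ± 0.911 and 9.83 ± 1.27 TPM (0.38, adjusted p = 0.00138). Its sign turned under that scaling, to -0.17 (adjusted p = 0.0258), so both passed there in opposite directions.

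Larger proteins with an acyl-CoA binding domain are encoded by anox, whose product also carries ankyrin repeats, CG8814 and CG14232. CG8814 measured 50.8 to 53.6 TPM in RNAi-labelled libraries and 102 to 112 TPM in controls, a log2 fold change of -1.03 (SE 0.05, limma adjusted p = 1.37e-08). It was lower under median-of-ratios scaling too, by -1.62. By contrast anox measured 45.5 to 50.7 TPM in RNAi-labelled libraries and 24.8 to 28.7 TPM in controls (0.82, adjusted p = 2.34e-07), and CG14232 16.7 to 20.1 and 9.32 to 10.7 TPM (0.83, adjusted p = 3.29e-07). Both stayed higher under median-of-ratios scaling, by 0.23 and 0.27.

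Enzymes that make or use the acyl-CoA esters these proteins carry were called lower more often than higher in most lists. The counts are read against 16.3% of all genes lower and 66.9% higher on the TPM scale. Under median-of-ratios scaling those shares were 35.8% and 35.6%. Of 12 acyl-CoA synthetase genes tested 4 were lower and 1 higher (median log2 fold change -0.21, against 0.55 over all genes), and median-of-ratios scaling gave 7 lower and 1 higher. Acsl fell to 104 ± 11.4 TPM, against 237 ± 19.6 TPM in controls, and CG12512 to 11.8 ± 2.05 TPM, against 52.5 ± 10.2 TPM. The gene that rose was pdgy, at 110 ± 18.9 TPM, against 35.3 ± 3.61 TPM in controls. Of 15 genes of glycerolipid acylation 8 were lower and 3 higher (median -0.45), and under median-of-ratios scaling 13 were lower and none higher. Agpat3, an acylglycerolphosphate acyltransferase, had a log2 fold change of -1.34, and mdy, a diacylglycerol acyltransferase, one of -1.45. CG1946, of the same list, was at 12.0 ± 3.31 TPM in RNAi-labelled libraries and 46.2 ± 5.63 TPM in controls.

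Over all genes tested 16.3% were lower and 66.9% higher, and under median-of-ratios scaling 35.8% and 35.6%. In fatty acid synthesis 3 of 7 genes were lower and none higher (median -0.11), and 5 were lower under median-of-ratios scaling. Men, for malic enzyme, which supplies reducing power for it, fell by 1.28 and ACC, for acetyl-CoA carboxylase, fell by 0.37 on the log2 scale. The third, ATPCL, for ATP citrate lyase, was at -0.43. In fatty acid elongation 6 of 11 genes were lower and 1 higher (median -0.36), and 9 lower and none higher under median-of-ratios scaling, with Hacd1 at -0.73, the elongase gene bond at -0.77 and CG31523 at -0.44. In beta-oxidation 10 of 19 were lower and 7 higher (median -0.20). Under median-of-ratios scaling this became 13 lower and 1 higher. The acyl-CoA oxidase gene CG9527 was among the lower ones, at 152 ± 13.9 TPM in RNAi-labelled libraries and 396 ± 30.7 TPM in controls, as was Acox57D-p, another acyl-CoA oxidase gene, at 62.1 ± 6.68 and 137 ± 10.3 TPM. CG4860 was higher, at 14.7 ± 0.556 TPM in RNAi-labelled libraries and 8.50 ± 0.635 TPM in controls.

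Ceramide synthesis, which starts from palmitoyl-CoA, had 4 of 5 genes higher and none lower (median 0.43). That count is near the share of all genes called higher, 66.9%, and the median is below the 0.55 of all genes. Under median-of-ratios scaling 2 were higher and 2 lower, where 35.6% and 35.8% of all genes were. Spt-I, a subunit of the first enzyme, was at 102 ± 6.96 TPM in RNAi-labelled libraries and 58.5 ± 3.36 TPM in controls. The other subunit gene, lace, was higher by 0.43 and ifc, for dihydroceramide desaturase, by 0.74 on the log2 scale. On the list for lipid droplets and lipid store control, 7 of 14 genes were higher and 5 lower (median 0.00). Under median-of-ratios scaling 2 were higher and 10 lower. These counts and the median include CCT1 and CCT2, matched by name, which encode chaperonin subunits and do not belong on a lipid list. Both were higher on the TPM scale (1.15 and 1.27), and they were the 2 higher under median-of-ratios scaling (0.56 and 0.67). Lsd-1 was among those lower (-1.80).

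Among other midgut cell markers, 6 of 12 enterocyte genes were higher and 4 lower, 5 of 12 enteroendocrine genes were higher and 5 lower (6 and 3 without control replicate 2), and 3 of 5 copper cell region genes were higher and 1 lower. Over all genes tested 66.9% were higher and 16.3% lower. Under median-of-ratios scaling these counts were 5 and 6, 1 and 6, and 0 and 3, against 35.6% higher and 35.8% lower over all genes. Markers of other tissues that could adhere to a dissected gut gave these values. Visceral muscle genes summed to 2058 to 2461 TPM in RNAi-labelled libraries and 2329 to 2658 TPM in controls, with 4 of 10 lower and none higher, and all 10 lower under median-of-ratios scaling. Fat body markers summed to 234 to 286 TPM in RNAi-labelled libraries and 280 to 423 TPM in controls, with 3 of the 4 tested lower and 1 higher under both scalings. Among them Lsp2 averaged 0.0406 TPM in the RNAi-labelled group and 3.83 TPM in controls, and Tep4, the one that was higher, 107 and 49.7 TPM. Malpighian tubule markers varied between libraries of both groups, from 15.9 to 86.9 TPM in the RNAi-labelled and from 39.6 to 110 TPM in the control-labelled ones. Of the 5 tubule genes tested 2 were lower and none higher under both scalings. Testis markers summed to at most 4.40 and 0.783 TPM, and male accessory gland markers to at most 19.3 and 1.11 TPM. The 1 accessory gland gene tested was higher under both scalings. The part of these tissues in the levels of the Acbp genes was not tested.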

How the data were processed

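Groups and replicate numbers came from the sample labels. The authors' deposited table gives TPM per gene (totals 975327 to 982443 per library). FastQC, Trim Galore, kallisto, edgeR and build BDGP6 are named, per the submitters' processing notes, with no tool versions, and per the labels the kit was stranded. Which tool made which table is not given in the sources used here, except that the workbook of the authors' comparison has RUVSeq, which removes unwanted variation, in its name. TPM keeps no depth, so no counting interval was computed, and how related genes shared reads is unknown. A separate table deposited by the authors holds their own comparison, as log2 fold change and unadjusted p-value, copied here only where named. That table also lists 58 identifiers beginning with ERCC, a usual prefix of spike-in controls. Their median log2 fold change was -0.03, against 0.13 for its genes. A further deposited table lists the genes the authors called significant, with a likelihood ratio score. A gene is said here to pass in the authors' comparison if it is on that list.

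Here, log2(TPM + 1) of the 8784 genes averaging 1 TPM or more was compared with limma 3.58.1 in R 4.3.3 (two-sided, variances moderated along a trend with mean level, no covariate), with Benjamini-Hochberg adjustment over all genes tested. The pseudocount understates changes of low genes. Names came from the deposited gene table, and coordinates from annotation release 115, matched for 14263 of 14310 identifiers. All members, other acyl-CoA binding domain genes and cluster neighbours were named, with the 3 most similar genes per member and up to 3 called genes per pathway list by adjusted p. The 8 pathway and 9 marker lists were written from general knowledge, and 186 of their 191 genes were in the table. The members and lists were chosen with earlier results of these data known. Nothing in the sources used here says more of how replicates were made than that they are biological.

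The fit was tested on simulated data for this comparison (8784 genes, 200 changed). Calls were made for 44 of 67 genes with a log2 change of 0.5, for 63 of 67 at 1, for 64 of 66 at 2, and for 7 unchanged genes. The simulated noise was independent between genes, and far fewer genes were changed than the 83.2% called in the data. These rates therefore cannot be carried over to the real comparison. Alternatives were pseudocounts of 0.1 and 5, no filter or one at 5 TPM, 3 other scalings, the replicate number as a block, no trend, and leaving out each library. Protein and promoter sequences were not analysed here.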

Additional observations from a re-analysis of the deposited data

Results flagged for a closer look

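The Acbp6 level of control replicate 2, 155 TPM, lay far above the other 4 controls, which held 5.20 to 27.4 TPM. On TPM without logs, the gap to the nearest control was 0.852 of the whole range of that group. The log scale used for the fits was not examined in this way. The nearest control was replicate 1 at 27.4 TPM, and the remaining controls held 5.20 to 8.13 TPM. The share of Acbp6 in the family's summed TPM stood apart in the same library, at 2.11% against 0.0714% to 0.338% in the other controls. These were 2 of 40 groups of 5 values examined, and chance alone marks about 1 in 20. Both rest on the same Acbp6 value of control replicate 2, so they are not 2 separate findings and the 2 rates cannot be compared. The same control lay as far above the others for 7.39% of all genes tested, where each of the other 4 controls did so for 0.25% to 0.364%.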

How the results depend on the processing

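Acbp2 and Acbp6 kept their direction and passed under every alternative run. Acbp1 turned to -0.13 under median-of-ratios scaling (also with the replicate block) and kept its sign but not its call under quantile normalization, at 0.15. Acbp3 passed at -0.81 and Acbp5 at -0.73 under median-of-ratios scaling, with or without the replicate block, and Acbp5 at -0.26 when libraries were rescaled without the 20 most abundant genes. These scalings differ by construction in the level set for the typical gene.

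Members called higher numbered 1 under median-of-ratios scaling, with or without the block, and under quantile normalization. Members called lower numbered 3 under median-of-ratios scaling with or without the block, and 2 in the rescaling without the most abundant genes. Over all genes the calls were 3129 higher and 3145 lower under median-of-ratios scaling, 3010 and 3113 with the replicate block added, and 3888 and 2557 under quantile normalization, against 5878 and 1429.

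Leaving out 1 library at a time gave log2 fold changes of 0.41 to 0.50 for Acbp1, -0.75 to -0.65 for Acbp2, -0.35 to -0.15 for Acbp3, -0.20 to -0.073 for Acbp5 and 4.30 to 5.46 for Acbp6. With median-of-ratios scaling these ranges were -0.20 to -0.08, -1.39 to -1.24, -0.94 to -0.73, -0.84 to -0.66 and 3.73 to 4.85. Acbp1 passed as lower in that set without control replicate 2 (adjusted p = 0.0325). Members called then numbered 2 higher and 1 to 2 lower, and 1 higher and 3 to 4 lower with that scaling. Over all genes they were 5778 to 5981 higher and 1340 to 1458 lower, and 2984 to 3154 and 2994 to 3170 with that scaling. The difference in the Acbp3 share ran from -2.13 to 0.52 percentage points and changed sign in 3 cases (0.0654, 0.52 and 0.0958). The ratio of Acbp1 to Acbp3 missed the threshold in 9 of the 10 cases (adjusted exact p up to 0.0706).

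Same-numbered libraries did not deviate together (r of -0.331 to 0.358 over the 5 numbers, over 0.1 in 2), so the replicate block stayed an alternative. Alone it changed no member's call and gave 5849 genes higher and 1400 lower.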
